A study of Danio rerio with 8 samples.

Results

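The genes described here were 9 zebrafish genes of cilium formation, read in whole embryos at 8 hpf (hours post fertilization), in mid-gastrulation and before Kupffer's vesicle has formed. They were *foxj1a*, *foxj1b*, *rfx2*, *ift88*, *ift122*, *ift172*, *arl13b*, *dnaaf1* and *nme7*, taken by name from the 32520 genes in the count table. A row was found for 8 of the 9, and 7 had enough reads to be tested. *ift122*, a subunit of intraflagellar transport complex A, had no identifier paired with its name in the tables used, and was not analysed here. The row of *foxj1a* (ENSDARG00000101919) is named FOXJ1 in the gene name table, which RefSeq gives as a synonym of *foxj1a*, whereas *foxj1b* (ENSDARG00000088290) has a row under its own name.

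The study compared 4 libraries of *miR-34a-/-* embryos with 4 libraries of wild-type embryos, each made from poly-A RNA of a pool of whole embryos, to learn which transcripts change with loss of the microRNA miR-34a. Both genotypes were in the casper background, a line with little pigment. The mutants descend from 1 deletion allele that removes the *miR-34a* gene, made with several guide RNAs in the same embryos. Mutant parents give them neither maternal nor zygotic miR-34a. The paper states that the mutants were kept as a separate homozygous line. It adds that the wild-type embryos were not their siblings and may be somewhat divergent genetically. An effect of the allele thus cannot be told apart from an effect of this line. The labels do not say whether the 4 libraries of a genotype came from separate clutches, so the p-values measure only the spread between these libraries, which may be technical.

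Cilia are microtubule-based projections of the cell surface, built by intraflagellar transport, in which protein trains carried by kinesin and dynein motors bring cargo to the tip and back. Foxj1 is the transcription factor that turns on the genes of motile cilia, and Rfx factors act beside it on genes of cilia in general. In zebrafish, the dorsal forerunner cells at the leading edge of the dorsal margin express *foxj1a* during gastrulation, and later form Kupffer's vesicle, whose beating cilia set left and right. Most cells of a gastrula carry no motile cilium, and part of the RNA of ciliary and centriolar genes at this stage may be maternal.

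The RNA that the mutants lack is miR-34a, shown here because every comparison below is between embryos without it and embryos with it. Its mature sequence was read as the complement of the perfect target site that stands 3 times in the study's sensor oligo, and the capitals mark the seed, bases 2 to 8, which pairs with target RNAs.
miR-34a: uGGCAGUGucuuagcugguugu
Poly-A libraries do not capture mature microRNAs. The paper amplified primary miR-34 transcripts from oligo-dT cDNA at later stages, so such transcripts could in principle be read. The *mir34a*, *mir34b* and *mir34c* rows nevertheless held 0 counts in all 8 libraries, so the counts hold no check of the genotype labels. RefSeq places *mir34a* on chromosome 23 (assembly GRCz12tu), and none of the 9 genes on that chromosome. No promoter, transcript or protein sequence of the members was used here, and no target site was searched for.

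Libraries held 8159574 to 15724724 counts in *miR-34a-/-* embryos and 7132045 to 11191023 counts in wild-type embryos, so that 1 count was worth 0.0642 to 0.140 CPM (library-size normalized counts, with sizes scaled by TMM). Across the 13842 genes tested, 45.4% passed edgeR's quasi-likelihood test at a Benjamini-Hochberg adjusted p under 0.05, with 23.0% higher and 22.4% lower in *miR-34a-/-*, and the median log2 fold change was -0.0012. The counts of members and lists below are read against these shares. Genes of the gastrula were abundant in both genotypes, with a summed level of 7123 to 7503 CPM over 12 markers in *miR-34a-/-* libraries and 7038 to 7652 CPM in wild-type libraries. Of these 12, 5 were lower, among them the ventral factor *eve1* (log2 fold change -0.23), and *gata2a* and *aplnrb* were higher (0.12 and 0.13). Neither of these 2 passed without *miR-34a-/-* library 1, *miR-34a-/-* library 4 or wild-type library 4. *gata2a* passed in only 8 of 17 alternative fits (listed below) and *aplnrb* in 14. The span of *gata2a* overlaps that of *pbrm1*, which was higher as well (log2 fold change 0.70, edgeR adjusted p = 0.027). Markers of segmentation and later stages summed to 3.19 to 6.90 CPM in *miR-34a-/-* libraries and 4.94 to 7.21 CPM in wild-type libraries over 9 genes, so both genotypes read as gastrulae. These sums do not resolve a shift of stage within gastrulation, which was not tested. The paper cautions that mutants may develop somewhat differently despite careful staging.

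Of the 7 members tested, 3 passed the test, *nme7* higher and *foxj1a* and *foxj1b* lower in *miR-34a-/-* embryos, a share of 42.9% beside 45.4% of all genes. The same 3 were the members whose genotypes did not overlap in any library, a pattern that 38.8% of all genes tested showed. The genes of the transport trains (*ift88*, *ift172*), of the ciliary membrane (*arl13b*) and *rfx2* did not pass. The share of members called was thus close to that of all genes, and the median log2 fold change of the 7 was -0.02.

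**Figure D1:**
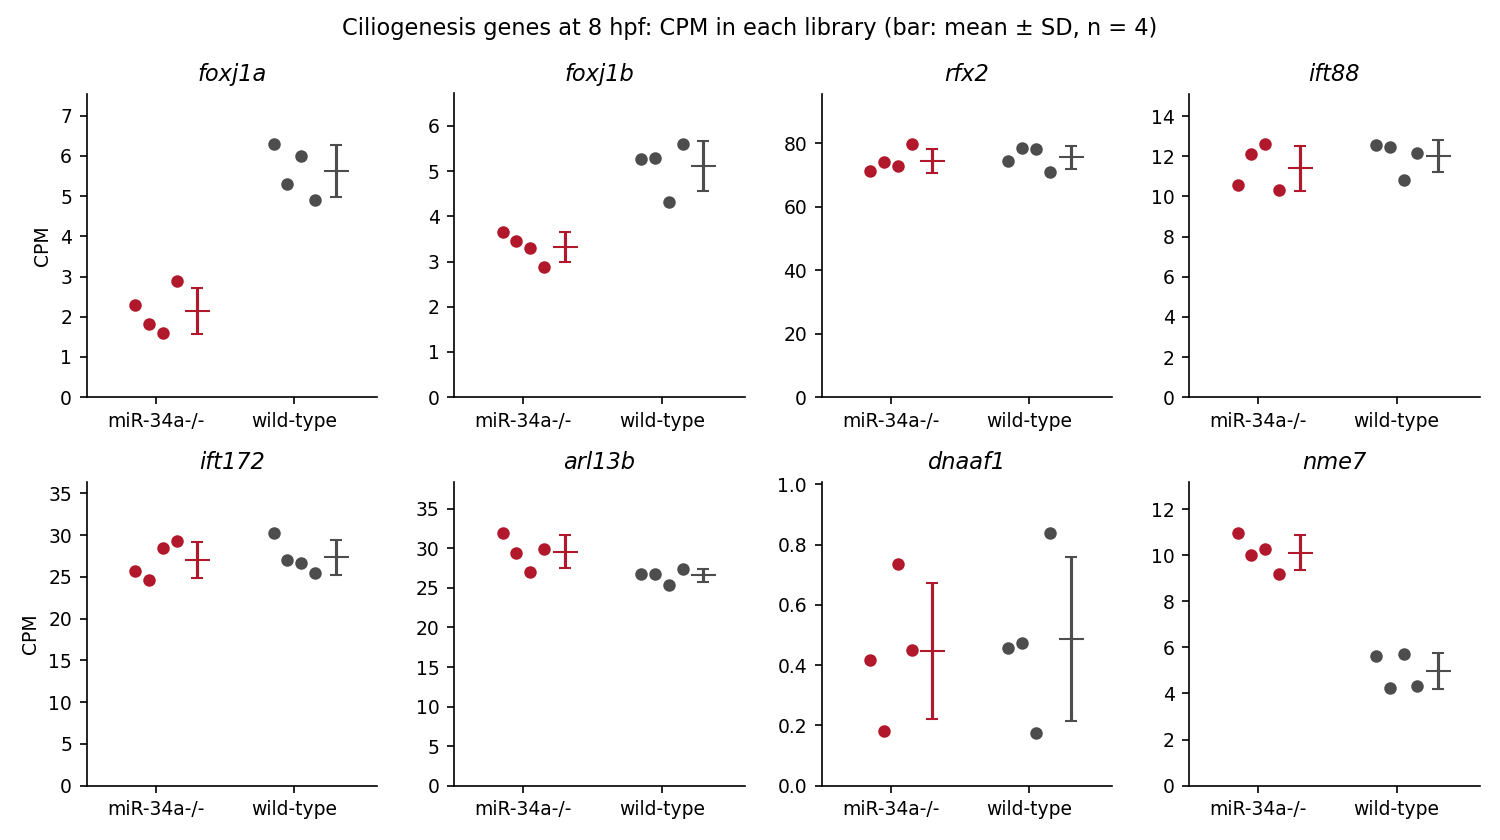
CPM of the 8 ciliogenesis genes with a row in the counts, in 4 *miR-34a-/-* libraries (red, left) and 4 wild-type libraries (grey, right); bars give the mean and SD, and each panel has its own axis from 0. *foxj1a* and *foxj1b* lie lower in every *miR-34a-/-* library than in any wild-type library, *nme7* lies higher, and the other 5 overlap.

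*foxj1a*, the master regulator of motile cilia in the forerunner cells, had 2.30, 1.82, 1.59 and 2.89 CPM in *miR-34a-/-* libraries 1 to 4, against 6.29, 5.30, 5.995 and 4.90 CPM in wild-type libraries 1 to 4. The highest *miR-34a-/-* library lay well under the lowest wild-type library. The mean was 2.15 ± 0.573 CPM in *miR-34a-/-* embryos and 5.62 ± 0.638 CPM in wild-type embryos (SD, n = 4 each). This was a fall to 39.7% of the wild-type level, with a 95% confidence interval of 30.0% to 52.4% (log2 fold change -1.33, SE 0.20, edgeR adjusted p = 3.0e-06). The two-sided exact permutation test of log2 CPM gave p = 0.0286, the smallest that the 35 splits into 4 and 4 allow. The reads behind it were few, 100 over the 4 *miR-34a-/-* libraries and 214 over the 4 wild-type libraries. In RNA of whole embryos, fewer cells that express a gene and less RNA in each of them cannot be told apart.

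*foxj1b*, the second zebrafish copy of *foxj1*, had 3.66, 3.46, 3.30 and 2.89 CPM in *miR-34a-/-* libraries 1 to 4, against 5.26, 5.30, 4.32 and 5.596 CPM in wild-type libraries 1 to 4. Again no library of one genotype reached into the range of the other. Its mean was 3.33 ± 0.328 CPM in *miR-34a-/-* embryos and 5.12 ± 0.553 CPM in wild-type embryos (SD, n = 4 each). *foxj1b* thus fell to 64.9% of the wild-type level (95% confidence interval 50.8% to 83.1%, log2 fold change -0.62, SE 0.17, edgeR adjusted p = 0.0044, exact permutation p = 0.0286). When a change beyond 1.5-fold was asked of the test, *foxj1a* still passed (adjusted p = 0.0014) and *foxj1b* did not (adjusted p = 1).

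Cells that give rise to Kupffer's vesicle carry *foxj1a* together with other genes, and those genes were read in the same libraries. Of 9 markers of forerunner cells and the vesicle, 7 were tested, 5 were lower in *miR-34a-/-* embryos, 1 was higher and 1 did not pass. Among all genes, 22.4% were lower and 23.0% higher. None of the 7 passed where a change beyond 1.5-fold was asked. The summed level of the 9 markers was 1308 to 1434 CPM in *miR-34a-/-* libraries and 1499 to 1577 CPM in wild-type libraries. Many of these markers are shared with the wider mesoderm and endoderm, so their sum is no count of forerunner cells. *sox17*, a factor of endoderm and forerunner cells, averaged 20.9 ± 1.74 CPM in *miR-34a-/-* embryos and 29.8 ± 1.67 CPM in wild-type embryos (SD, n = 4 each), with a log2 fold change of -0.50 (SE 0.08, edgeR adjusted p = 1.3e-05). The span of *sox17* overlaps that of the protein-coding gene *LOC110439952*, for which no level was read here. *cftr*, a chloride channel that later fills the vesicle with fluid, averaged 2.77 ± 0.909 CPM in *miR-34a-/-* embryos and 4.76 ± 0.451 CPM in wild-type embryos (log2 fold change -0.78). *noto*, a factor of the notochord and the forerunner cells, and *tbxta*, the Brachyury factor of the mesoderm, had log2 fold changes of -0.28 and -0.20. In contrast, *vgll4l*, a cofactor needed for forerunner cells in zebrafish, was higher (log2 fold change 0.27, SE 0.07).

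The endoderm and forerunner factor *sox32* did not pass, at 187.5 CPM in *miR-34a-/-* embryos and 196.9 CPM in wild-type embryos. *dand5*, the Nodal antagonist of Kupffer's vesicle, had 0 counts in all libraries, which allows 0.192 to 0.420 CPM a library (3 counts, counting error only). *spaw*, the Nodal ligand of the left side, averaged 0.135 CPM in *miR-34a-/-* embryos and 0.155 CPM in wild-type embryos. All 5 tested markers of axial mesoderm and floor plate were lower too, at log2 fold changes of -0.44 to -0.10. Among them were *foxa2*, a floor plate and endoderm factor (-0.44), *gsc*, an organizer factor (-0.38), and *foxa* (-0.20). The forerunner and axial lists share genes with the 12 gastrula markers, *tbxta* and *gsc* among them. Among all genes 22.4% were lower, and none of these 5 axial markers passed where a change beyond 1.5-fold was asked. Without *miR-34a-/-* library 3, 3 of those 5 passed, and *foxa* did not pass without *miR-34a-/-* library 1 or 2 or wild-type library 2. The part of the forerunner and axial markers in the lower *foxj1* levels was not tested.

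**Figure D2:**
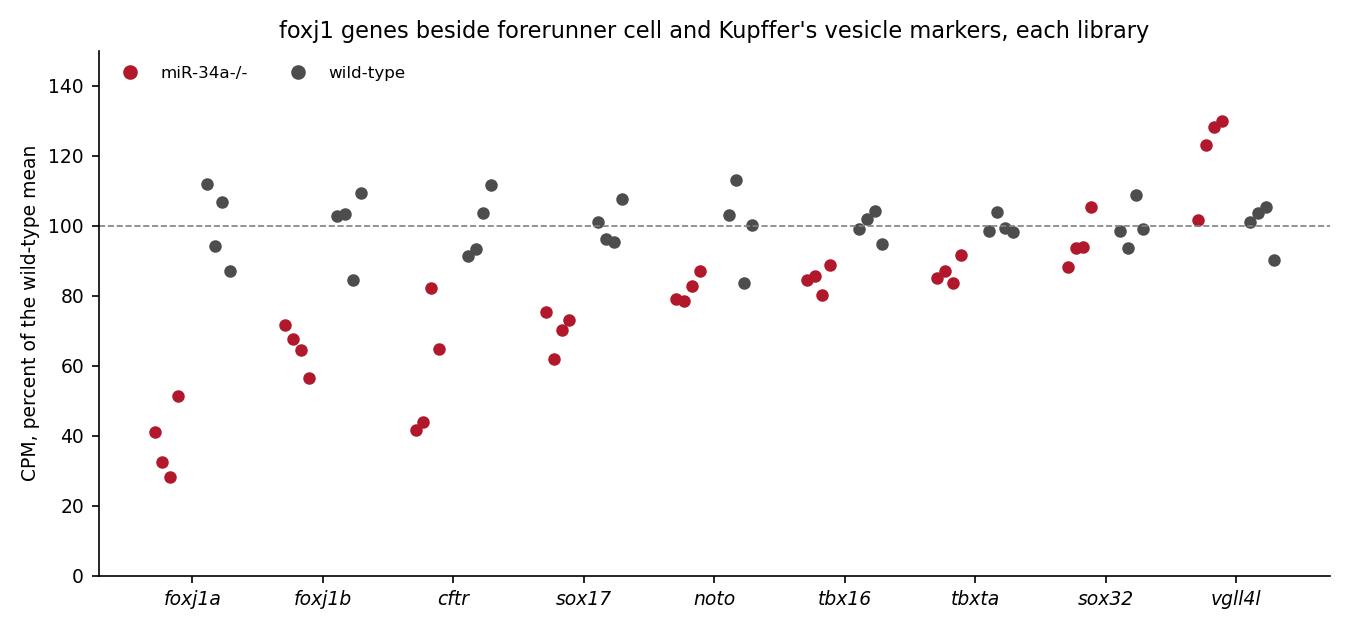
CPM of *foxj1a*, *foxj1b* and the 7 tested markers of forerunner cells and Kupffer's vesicle in each *miR-34a-/-* library (red, left) and wild-type library (grey, right), as a percentage of the wild-type mean of that gene (dashed line at 100). Both *foxj1* genes, *cftr*, *sox17*, *tbx16* and *tbxta* lie lower in every *miR-34a-/-* library than in any wild-type library, *noto* lies lower but overlaps, *sox32* overlaps and *vgll4l* lies higher with overlap.

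*rfx2*, which encodes an Rfx factor active in the ciliated cells of Kupffer's vesicle, did not differ beyond the spread between libraries. It had 71.2, 74.2, 72.8 and 79.7 CPM in *miR-34a-/-* libraries 1 to 4, against 74.5, 78.6, 78.3 and 70.9 CPM in wild-type libraries 1 to 4. The log2 fold change was -0.02 (SE 0.06, edgeR adjusted p = 0.79), with a 95% confidence interval of -0.13 to 0.09, so that the interval reached from 91.2% to 106.7% of the wild-type level. The span of *rfx2* overlaps that of *fcho1*, an endocytosis gene, which was at 1.65 CPM in *miR-34a-/-* embryos and 2.50 CPM in wild-type embryos and did not pass (edgeR adjusted p = 0.060). Of 8 other Rfx genes listed, 4 had a row and 3 were tested, and none of *rfx3*, *rfx4* and *rfx5* passed. The lowest was *rfx4*, at a log2 fold change of -0.62 (SE 0.28, edgeR adjusted p = 0.074), which passed in 3 of 16 alternatives: limma-voom, the replicate block, and *miR-34a-/-* library 4 left out (log2 fold change -1.13).

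Both genes of transport complex B among the members had overlapping genotypes. *ift88* had 10.6, 12.1, 12.6 and 10.3 CPM in *miR-34a-/-* libraries 1 to 4, against 12.6, 12.5, 10.8 and 12.2 CPM in wild-type libraries 1 to 4, a log2 fold change of -0.08 (95% confidence interval -0.31 to 0.14, edgeR adjusted p = 0.56). For *ift172*, the *miR-34a-/-* libraries held 25.7, 24.7, 28.5 and 29.3 CPM, and the wild-type libraries 30.3, 27.0, 26.6 and 25.5 CPM. Its log2 fold change was -0.01 (95% confidence interval -0.18 to 0.15, edgeR adjusted p = 0.90). Depth was not scarce for *ift172*, with 1206 counts over the *miR-34a-/-* libraries and 1035 over the wild-type libraries, whereas *ift88* had 498 and 452.

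*arl13b*, a small GTPase of the ciliary membrane, had 32.0, 29.4, 27.1 and 30.0 CPM in *miR-34a-/-* libraries 1 to 4, against 26.8, 26.8, 25.4 and 27.4 CPM in wild-type libraries 1 to 4. The genotypes overlapped through *miR-34a-/-* library 3, which lay under the highest wild-type library. At 111.8% of the wild-type level, *arl13b* did not pass (log2 fold change 0.16, SE 0.08, edgeR adjusted p = 0.081, exact permutation p = 0.0571). Without *miR-34a-/-* library 3 its adjusted p was 0.038, and over 17 alternatives it ran between 0.038 and 0.22.

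*dnaaf1*, an assembly factor that loads dynein arms for motile axonemes, was close to the floor. Its counts were 4, 2, 6 and 7 in *miR-34a-/-* libraries 1 to 4, against 4, 5, 2 and 6 in wild-type libraries 1 to 4. The means of 0.446 ± 0.226 CPM in *miR-34a-/-* embryos and 0.487 ± 0.272 CPM in wild-type embryos (SD, n = 4 each) overlapped, and the filter on low counts kept the gene out of the test. With no filter the log2 fold change was -0.07 (edgeR adjusted p = 0.95). A small difference of *dnaaf1* was not detectable at this depth.

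*nme7* encodes a nucleoside diphosphate kinase of axonemes that also binds the gamma-tubulin ring complex, the nucleator of microtubules. It had 11.0, 10.02, 10.3 and 9.17 CPM in *miR-34a-/-* libraries 1 to 4, against 5.61, 4.26, 5.73 and 4.34 CPM in wild-type libraries 1 to 4. Every *miR-34a-/-* library lay above every wild-type library. The mean of 10.1 ± 0.746 CPM in *miR-34a-/-* embryos was thus well above that of 4.98 ± 0.794 CPM in wild-type embryos (SD, n = 4 each). The level in *miR-34a-/-* embryos was 199.9% of wild-type (95% confidence interval 164.1% to 243.6%, log2 fold change 1.00, SE 0.14, edgeR adjusted p = 1.3e-06, exact permutation p = 0.0286).

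The span of *nme7* overlaps that of the protein-coding gene *zgc:172121* in RefSeq (GRCz12tu). That gene had 4.60, 5.01, 6.49 and 4.81 CPM in *miR-34a-/-* libraries 1 to 4, against 2.75, 2.36, 2.73 and 2.099 CPM in wild-type libraries 1 to 4, a log2 fold change of 1.04 (SE 0.19, edgeR adjusted p = 5.6e-05). Both genes were thus higher by a similar amount. Since the sources used here do not say whether strand was used in counting, reads of the 2 genes cannot be told apart where they share sequence, and the value of *nme7* is uncertain to that extent. RefSeq shows no gene overlapping *foxj1a*, *foxj1b*, *ift88* or *arl13b*.

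**Figure D3:**
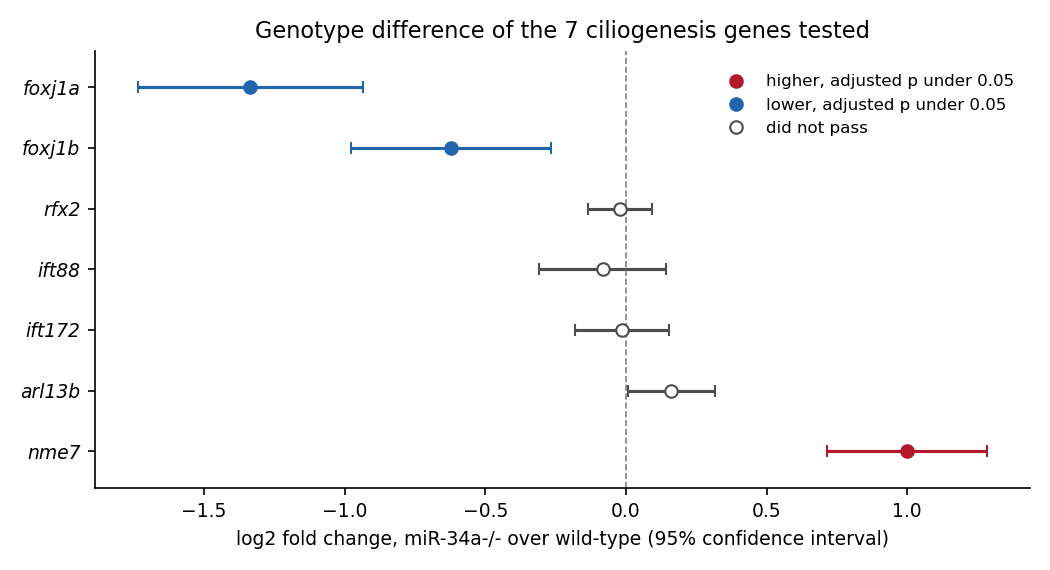
Log2 fold change, *miR-34a-/-* over wild-type, of the 7 ciliogenesis genes tested, with the 95% confidence interval from edgeR's quasi-likelihood fit; filled points passed at an adjusted p under 0.05. *foxj1a* (-1.33) and *foxj1b* (-0.62) lie left of 0 and *nme7* (1.00) lies right of it; *arl13b* (0.16) has an interval that just clears 0 but did not pass after adjustment.

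To set the members beside their pathway, 198 other genes of cilia and centrioles were taken in 14 lists by the part of the cilium they build. Of these, 168 had a row and 121 were tested. In *miR-34a-/-* embryos 35 were higher, 14 were lower and 72 did not pass, so 40.5% passed, beside 45.4% of all genes. The median log2 fold change was 0.08. The lists differed in direction and are given in turn, from the transport trains to the motile axoneme. A change beyond 1.5-fold was called for 10 of the 121, 8 higher and 2 lower, beside 1078 of the 13842 genes tested.

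The other genes of transport complex B mostly did not pass, as *ift88* and *ift172* did not. Of 14 tested, 1 was higher, 3 were lower and 10 did not pass, so 28.6% passed, beside 45.4% of all genes. The exception on the high side was *ift80*, at 34.0 ± 1.35 CPM in *miR-34a-/-* embryos and 15.8 ± 0.641 CPM in wild-type embryos (SD, n = 4 each). Its log2 fold change was 1.10 (SE 0.08, edgeR adjusted p = 8.3e-12). The span of *ift80* overlaps that of the far more abundant *kpna4*, so reads of shared sequence cannot be told apart. *kpna4* was at 597.5 CPM in *miR-34a-/-* embryos and 569.2 CPM in wild-type embryos and did not pass (edgeR adjusted p = 0.12). On the low side were *ift70*, which carries cargo with the train, at 14.5 ± 1.33 CPM in *miR-34a-/-* embryos and 22.8 ± 1.52 CPM in wild-type embryos (log2 fold change -0.65), and *ift74*, a tubulin-binding subunit (log2 fold change -0.51). *ift46* was lower by a smaller step (log2 fold change -0.29, edgeR adjusted p = 0.015) and did not pass in 3 of 17 alternatives, *miR-34a-/-* library 1 or 2 left out among them.

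In complex A, which returns trains to the cell body, 5 of 6 genes listed were tested. *ift140* was higher (log2 fold change 0.44, SE 0.08, edgeR adjusted p = 4.1e-05). *tulp3*, the adaptor that brings membrane receptors onto complex A, passed on the low side (log2 fold change -0.22, edgeR adjusted p = 0.037) but in only 8 of 17 alternatives, whose adjusted p ran from 0.018 to 0.15, and not without *miR-34a-/-* library 2 or 4 or wild-type library 1, 2 or 3.

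Of the ciliary motors, 9 were tested, 2 were higher and 1 was lower, so 33.3% passed, beside 45.4% of all genes. *dync2h1*, the heavy chain of the dynein that drives return transport, averaged 4.52 ± 0.276 CPM in *miR-34a-/-* embryos and 9.63 ± 1.02 CPM in wild-type embryos (SD, n = 4 each), with a log2 fold change of -1.08 (SE 0.14, edgeR adjusted p = 3.4e-07). Its light intermediate chain *dync2li1* was higher, at 24.9 ± 2.27 CPM in *miR-34a-/-* embryos and 12.5 ± 0.631 CPM in wild-type embryos (log2 fold change 1.00, SE 0.09, edgeR adjusted p = 1.4e-09). *tctex1d2*, a light chain of the same motor, was higher as well, at 3.22 ± 0.616 CPM in *miR-34a-/-* embryos and 1.31 ± 0.349 CPM in wild-type embryos (log2 fold change 1.28). Subunits of 1 dynein complex thus differed in opposite directions. The span of *dync2li1* overlaps that of the protein-coding gene *cep170aa*, for which no level was read here. None of the kinesin subunits in the list passed.

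The transition zone is the gate at the ciliary base, and all of its genes that passed lay on one side. All 17 with a row were tested, 9 were higher in *miR-34a-/-* embryos, none was lower and 8 did not pass, at a median log2 fold change of 0.27. Among all genes 23.0% were higher. *tmem17*, a membrane protein of the gate, averaged 6.90 ± 1.29 CPM in *miR-34a-/-* embryos and 3.18 ± 0.366 CPM in wild-type embryos (SD, n = 4 each; log2 fold change 1.13, SE 0.18, edgeR adjusted p = 6.4e-06). *cep290*, which spans the gap between microtubules and membrane, had 65.0, 62.6, 66.7 and 55.3 CPM in *miR-34a-/-* libraries 1 to 4, against 38.9, 33.9, 39.7 and 40.9 CPM in wild-type libraries 1 to 4. No library overlapped between the genotypes for *cep290* (log2 fold change 0.70, SE 0.07, edgeR adjusted p = 5.3e-09). The summed level of the list was 356.4 to 379.6 CPM in *miR-34a-/-* libraries and 273.4 to 296.0 CPM in wild-type libraries. Between 9 and 11 genes of the list were higher, and none lower, under each of 17 alternatives, but only 1 passed where a change beyond 1.5-fold was asked.

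*cep290* overlaps *rlig1*, which was lower, at 2.59 ± 0.0934 CPM in *miR-34a-/-* embryos and 3.97 ± 0.483 CPM in wild-type embryos (SD, n = 4 each; edgeR adjusted p = 0.0098). *tmem17* overlaps *agbl2*, which was under 1 CPM in both genotypes on average (0.609 CPM in *miR-34a-/-* and 0.428 CPM in wild-type embryos). It also overlaps the protein-coding gene *LOC107197950*, for which no level was read here. Reads of shared sequence cannot be told apart, so the values of *tmem17* and *cep290* are uncertain to that extent.

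The BBSome, a coat that carries membrane proteins out of cilia, and its chaperonins had 11 genes tested, of which 4 were higher and none was lower. The share that passed was 36.4%, beside 45.4% of all genes, of which 23.0% were higher. *bbs10*, a chaperonin-like protein, averaged 4.05 ± 0.496 CPM in *miR-34a-/-* embryos and 2.84 ± 0.113 CPM in wild-type embryos (SD, n = 4 each; log2 fold change 0.52). *bbs1*, a core subunit, and *bbip1*, the smallest subunit, had log2 fold changes of 0.49 and 0.46. *bbs1* overlaps *si:dkeyp-50d11.2* and *bbs10* overlaps *LOC101882393*, protein-coding genes for which no level was read here. The calls of *bbs1* and *bbs10* were lost without *miR-34a-/-* library 2 or wild-type library 3, and that of *bbs1* also without *miR-34a-/-* library 3 or wild-type library 1. This count rested on few libraries: it was 2 without *miR-34a-/-* library 2, without *miR-34a-/-* library 3 or without wild-type library 3, and 1 with DESeq2. Around *arl13b*, 9 genes of the ciliary GTPase network were tested. *inpp5e*, the phosphatase that Arl13b brings to the ciliary membrane, was higher (log2 fold change 0.45, SE 0.13, edgeR adjusted p = 0.0045), and *unc119b*, a carrier of lipid-modified cargo, was lower (log2 fold change -0.29, SE 0.05, edgeR adjusted p = 7.0e-05).

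Centriole and basal body genes went both ways, with 15 tested, 4 higher and 2 lower, a share of 40.0% beside 45.4% of all genes. *poc1b* and *poc1a*, which stabilize centrioles, had log2 fold changes of 0.51 and 0.49, and *ofd1*, a protein of the distal end and the satellites, 0.46. *plk4*, the kinase that starts centriole duplication, and its scaffold *cep152* had log2 fold changes of -0.20 and -0.19. *cep152* did not pass without *miR-34a-/-* library 4 or wild-type library 1, and the number of lower genes in the list was 1 without *miR-34a-/-* library 4 or with thinned counts and 4 under upper-quartile scaling. Of the gamma-tubulin ring complex and its recruiters, the partners of *nme7*, 9 were tested, 3 were higher and 1 was lower. That share of 44.4% was close to the 45.4% of all genes. *haus1*, a subunit of the augmin complex that recruits the ring, was at 36.4 ± 1.30 CPM in *miR-34a-/-* embryos and 20.5 ± 1.36 CPM in wild-type embryos (SD, n = 4 each; log2 fold change 0.83, SE 0.08, edgeR adjusted p = 1.1e-09). The ring subunits *tubgcp3* and *tubg1* were higher by log2 fold changes of 0.32 and 0.22, whereas *tubgcp5* was lower (-0.42).

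The step seen in *nme7* was not seen in the other nucleoside diphosphate kinases with enough reads. Of 9 listed, 4 were tested, and their log2 fold changes ran from -0.34 to 0.23. The row that carries the name NME1, a RefSeq synonym of *nme2b.1*, was the highest of these (log2 fold change 0.23, edgeR adjusted p = 4.1e-04), and *nme3* passed on the low side (log2 fold change -0.22, edgeR adjusted p = 0.020). The call of *nme3* was lost in 4 of 17 alternatives, with *miR-34a-/-* library 2 or 4 or wild-type library 1 left out among them. These kinases are close in sequence, and the sources used here do not say how reads shared between copies were counted.

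Genes of the motile axoneme, the programme that Foxj1 drives, were sparse at this stage. Of 14 axonemal dynein and docking genes with a row, 10 were too low to test, with at most 1.05 CPM on average in either genotype. Of 25 genes of the spokes, the central pair and the nexin link, 15 were too low (at most 0.994 CPM), and of 18 dynein assembly genes, 9 were (at most 0.929 CPM). Genes that are low in 1 genotype entered the test only through the other, so the numbers called among those tested say little about the lists. The multiciliated cell regulators *gmnc* and *mcidas*, upstream of Foxj1 in multiciliated cells, averaged 0.0567 and 0.0422 CPM in *miR-34a-/-* embryos and 0.0473 and 0.0220 CPM in wild-type embryos. *e2f5*, a cell cycle factor that also serves that programme, was lower, at 3.78 ± 0.664 CPM in *miR-34a-/-* embryos and 5.70 ± 0.780 CPM in wild-type embryos (SD, n = 4 each; log2 fold change -0.60, edgeR adjusted p = 0.0060).

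*cfap53*, a protein of the axoneme that zebrafish need for the cilia of Kupffer's vesicle, was lower. Its counts were 3, 4, 2 and 4 in *miR-34a-/-* libraries 1 to 4, against 16, 19, 33 and 13 in wild-type libraries 1 to 4. Over counts pooled by genotype and scaled by summed library size, it was 7.30 times lower in *miR-34a-/-* embryos. The exact counting interval was 4.04 to 14.3 from 13 and 81 counts (95%, Clopper-Pearson, counting error only). The edgeR adjusted p was 4.1e-07, but *cfap53* passed the filter on low counts only through the wild-type libraries. *enkur*, an axonemal protein needed for the left-right axis, averaged 3.62 ± 0.0569 CPM in *miR-34a-/-* embryos and 5.28 ± 1.03 CPM in wild-type embryos (SD, n = 4 each; log2 fold change -0.56, edgeR adjusted p = 0.0095), and did not pass in 2 of 17 alternatives, wild-type library 2 left out being one. *cfap53* and *enkur* were each lower in every *miR-34a-/-* library than in any wild-type library. Among all genes tested, 38.8% had genotypes that did not overlap, in either direction.

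Other axonemal genes lay on the opposite side. *dnah6*, an inner arm dynein heavy chain, had 12, 11, 23 and 22 counts in *miR-34a-/-* libraries 1 to 4, against 5, 6, 3 and 3 in wild-type libraries 1 to 4. The ratio of pooled counts, scaled by summed library size, was 3.41 (95% exact counting interval 1.98 to 6.20, edgeR adjusted p = 7.9e-04). *armc4*, which docks outer dynein arms, had 11, 14, 15 and 22 counts in *miR-34a-/-* libraries and 5, 4, 3 and 3 in wild-type libraries, a ratio of 3.53 (1.98 to 6.68; edgeR adjusted p = 2.8e-04). Both genes are near the floor of these libraries in wild-type embryos, where they averaged 0.456 and 0.409 CPM. They passed the filter on low counts only through the *miR-34a-/-* libraries, which limits what their adjusted p can show. *ccdc40*, a ruler of axonemal repeats, was better covered, at 10.6 ± 0.986 CPM in *miR-34a-/-* embryos and 5.65 ± 0.347 CPM in wild-type embryos (SD, n = 4 each; log2 fold change 0.90, SE 0.13, edgeR adjusted p = 1.9e-06).

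*hydin*, of the central pair, had a log2 fold change of 0.59 (SE 0.16, edgeR adjusted p = 0.0029). *dnah2*, another inner arm heavy chain, passed by a small margin (log2 fold change 0.51, edgeR adjusted p = 0.048) and in 7 of 17 alternatives, of which only 2 leave out a library (wild-type library 3 or 4). Among the assembly factors beside *dnaaf1*, *pih1d1*, a co-chaperone, was lower, at 2.27 ± 0.548 CPM in *miR-34a-/-* embryos and 3.90 ± 0.751 CPM in wild-type embryos (SD, n = 4 each; log2 fold change -0.80, edgeR adjusted p = 0.0035). *lrrc6* and *spag1a*, both needed to build dynein arms, passed at adjusted p of 0.049 and 0.043 in edgeR, in 4 of 16 and 8 of 17 alternatives. Neither passed without *miR-34a-/-* library 4 or wild-type library 3 or 4, and *lrrc6* was also lost without *miR-34a-/-* library 2 or 3 or wild-type library 2, and *spag1a* without wild-type library 1.

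**Figure D4:**
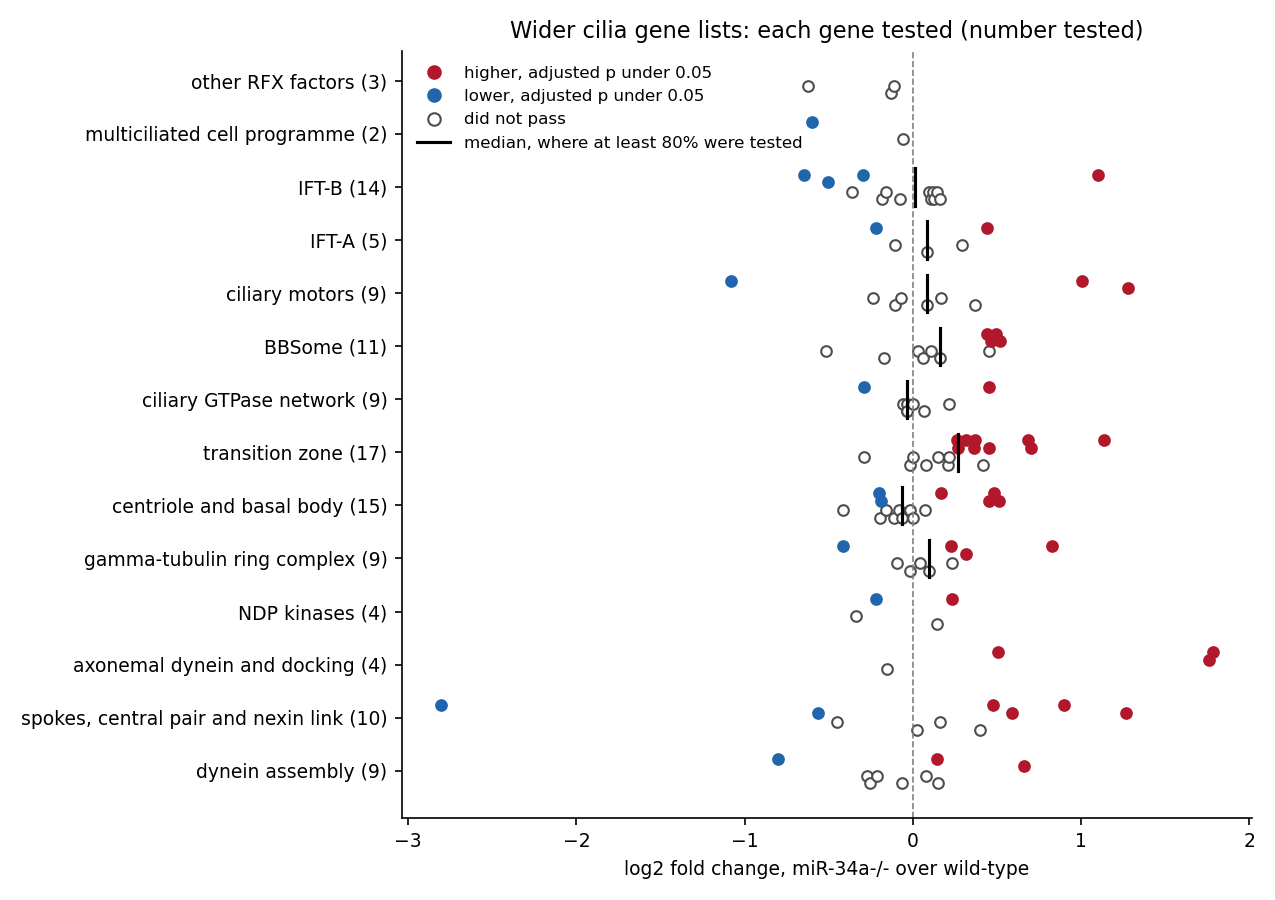
Log2 fold change, *miR-34a-/-* over wild-type, of each of the 121 tested genes in 14 lists of cilia and centriole genes (number tested in parentheses); red is higher and blue is lower at an adjusted p under 0.05, open circles did not pass, and vertical bars are list medians where at least 80% of the genes with a row were tested. The transition zone holds 9 higher and no lower genes at a median of 0.27, whereas the other lists with 9 or more genes tested, apart from the BBSome, hold called genes on both sides. Among all genes tested, 23.0% were higher and 22.4% lower.

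Maternal RNA was read beside these genes because ciliary and centriolar RNA in early embryos may be partly maternal. Of 10 genes of the oocyte and the early embryo, 5 were higher in *miR-34a-/-* embryos and 1 was lower. Among all genes, 23.0% were higher and 22.4% lower. *buc*, the organizer of germ plasm, had 4.29, 2.37, 9.18 and 3.34 CPM in *miR-34a-/-* libraries 1 to 4, against 2.06, 2.27, 1.94 and 1.54 CPM in wild-type libraries 1 to 4 (log2 fold change 1.19, SE 0.31, edgeR adjusted p = 0.0025). *dazl*, an RNA-binding protein of the germ line, and *ca15b*, a carbonic anhydrase gene of germ plasm, had log2 fold changes of 0.76 and 0.78, and *org*, an oocyte gene, -0.39. The summed level of the 10 overlapped, at 154.3 to 187.6 CPM in *miR-34a-/-* libraries and 154.3 to 172.0 CPM in wild-type libraries. The part of maternal RNA in the higher levels of *nme7* and of the transition zone genes was not tested.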

How the data were processed

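Raw counts per gene were deposited by the authors for 8 libraries. Per the labels and the study's methods, poly-A RNA of pooled 8 hpf embryos was sequenced on a NextSeq. Fragmentation with RNase III is described in the paper within its Ion Proton workflow, and whether it applied to these libraries is not stated there. Reads were trimmed with Trim Galore (0.4.4) and aligned with STAR (2.7.8) to danRer11. The counter, the annotation release and the use of strand are not given in the sources used here. The count table pairs no identifier with a symbol: 29201 of 32520 identifiers were paired through a gene name table and RefSeq (GRCz12tu, for names, overlaps and chromosomes only).

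Counts were fitted by genotype with edgeR 4.0.16 (R 4.3.3): TMM, filterByExpr, glmQLFit and glmQLFTest, with Benjamini-Hochberg adjustment over the 13842 genes kept and a threshold of 0.05. CPM used TMM library sizes. The fit was tested on simulated data. Single genes were also compared by the two-sided exact permutation test over 35 splits. Replicate numbers were not used as a block.

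Alternatives were RLE and upper-quartile scaling, no filter, at least 10 counts in every library, DESeq2 1.42.0, limma-voom (limma 3.58.1), the likelihood ratio test, a replicate block, glmTreat at 1.5-fold, thinning to the smallest library and leaving out each library. Beside the members, the text names at most the 3 genes with the largest rise and the 3 with the largest fall among those called in each list. *rfx4*, *sox32*, *dand5*, *spaw*, *gmnc*, *mcidas* and the overlapping genes were added after their values were seen. Members and lists were chosen with earlier results of these data known. The values of 2 genes that this rule names are not reported here.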

Additional observations from a re-analysis of the deposited data

Results flagged for a closer look

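In the 63 genes named by rule, each genotype's 4 libraries were searched for 1 library far from the other 3, and 4 of 126 groups held one. Chance gives about 1 in 20 groups. None of the ciliogenesis genes chosen for this report was among them. *cfap53* stood at 2.91 CPM in wild-type library 3, while the rest of that genotype lay between 1.80 and 1.83 CPM. *ift80* had 14.9 CPM in wild-type library 1, against 16.1 to 16.2 CPM in the others of that genotype. *spag1a* had 62.1 CPM in *miR-34a-/-* library 4, against 56.5 to 57.0 CPM, and *ca15b* had 6.36 CPM in *miR-34a-/-* library 3, against 8.74 to 9.10 CPM in the other *miR-34a-/-* libraries.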

How the results depend on the processing

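*foxj1a*, *foxj1b* and *nme7* kept their direction and passed under all 17 alternatives other than the test of a change beyond 1.5-fold. With a library left out, log2 fold changes ran from -1.56 to -1.23 for *foxj1a*, from -0.71 to -0.54 for *foxj1b* and from 0.92 to 1.08 for *nme7*. Those of *arl13b* ran from 0.13 to 0.20, the highest (adjusted p = 0.038) without *miR-34a-/-* library 3, those of *ift172* from -0.064 to 0.035 and those of *rfx2* from -0.059 to 0.0019, changing sign around 0 without passing. Asked for a change beyond 1.5-fold, the test called 1078 of 13842 genes, 10 of 121 wider cilia genes and 2 of 7 members. *foxj1b*, at -0.62, was not called, its 95% interval of -0.98 to -0.27 reaching below that size. With a replicate block, 3 of 7 members, 48 of 121 wider cilia genes and 6082 of 13842 genes passed. Same-numbered libraries did not deviate together (correlations -0.03 to 0.0077, and 1 library correlated best with its own number). No pairing by number was thus seen, but such correlations cannot exclude that same-numbered libraries shared a clutch or batch. Depth limits *dnaaf1* and most axonemal genes. Of the 63 genes named by rule, 44 passed in each of those 17 alternatives that tested them. The 63 include *rfx2*, *ift88*, *ift172* and *arl13b*, which did not pass with all libraries either, and *dnaaf1*, which was not tested there.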

Other observations

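Ratios within a library do not depend on how libraries are scaled. The 7 given here, of the *foxj1* genes to each other and to 3 markers of forerunner cells, were chosen after the values were seen and follow from the fold changes above, so they describe these libraries. No difference passed after Benjamini-Hochberg adjustment over the 7 (lowest adjusted p = 0.0667, two-sided exact permutation test, whose smallest unadjusted p is 0.0286). Ratios at that smallest p could pass only if most of the 7 reached it, so this outcome says little about any of them. The ratio of *foxj1a* to *sox17* ran from 0.0760 to 0.133 in *miR-34a-/-* libraries and from 0.153 to 0.211 in wild-type libraries, and that of *foxj1a* to *noto* from 0.0223 to 0.0385 in *miR-34a-/-* libraries and from 0.0543 to 0.0831 in wild-type libraries. Against *cftr*, *foxj1a* overlapped, at 0.406 to 1.16 in *miR-34a-/-* libraries and 0.921 to 1.45 in wild-type libraries. *foxj1b* overlapped against *sox17* (0.133 to 0.187 in *miR-34a-/-* and 0.152 to 0.185 in wild-type libraries) and against *cftr* (0.844 to 1.84 in *miR-34a-/-* and 0.875 to 1.21 in wild-type libraries), but not against *noto* (0.0385 to 0.0536 in *miR-34a-/-* and 0.0543 to 0.0648 in wild-type libraries). The ratio of *foxj1a* to *foxj1b* ran from 0.482 to 1.00 in *miR-34a-/-* libraries and from 0.875 to 1.39 in wild-type libraries, so a larger fall of *foxj1a* than of *foxj1b* is not shown (exact permutation p = 0.0857, adjusted 0.12). Reads of *sox17* and *noto* come from endoderm and notochord as well as from forerunner cells, so these ratios are not levels per forerunner cell.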
